A study of Mus musculus with 2 samples.

Results

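The collagens and the matrix genes that fibroblasts make were measured in the mouse colon with and without the prostaglandin E2 receptor EP4 in its epithelium. The genes were a list of 50, set by name with earlier results of these data known. They were among 22909 genes with a symbol on the array and were read through 71 probes. They comprised 6 fibrillar collagens, 5 collagens of the basement membrane, 10 other collagens and 29 matrix genes that are not collagens. Colon RNA came from C57BL/6 mice of the genotype Villin-Cre, the control, and from Villin-Cre; EP4flox/flox mice, called EP4 cKO. Both groups carried the Villin-Cre transgene, whose promoter is active in the epithelium of the gut and not in fibroblasts, so Ptger4 in stromal cells was left to them by design. The study examined EP4 of the epithelium in colon homeostasis. Each genotype had 1 array, whose RNA combined 3 pools of colon, so the difference between genotypes has no replicate check, no test was possible and every value describes these arrays only.

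Collagen is made as a triple helix in the endoplasmic reticulum, secreted, trimmed by proteinases and assembled outside the cell. Fibrillar collagens form the cables of the connective tissue, whereas type IV collagen forms the sheet on which epithelial cells and vessels rest. In the colon the fibrils and the proteins that coat them come mostly from fibroblasts of the lamina propria and submucosa, with contributions from smooth muscle.

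Values are the processed signals of the scanner, scaled on each array to a trimmed mean of 2500, and the log2 ratio is EP4 cKO over Villin-Cre. A probe was used if its signal was well above background on at least 1 array. Where it was dim on the other array, its dim side was held at the array's floor, which is the lowest signal flagged above background (125 on the Villin-Cre array, 57.8 on the EP4 cKO array), or at its own signal if larger. Such a ratio is a bound, given as at least N-fold, and its size depends on the floor and the processing. Bounds of 1 or less entered the medians at 0 on the log2 scale. If several probes of a gene were used, its brightest stood for it. Over 163 probes spotted 10 times and above background in both genotypes, the median SD of the log2 ratio between spots was 0.034, which covers the error within an array and not that between mice. On the array labelled Villin-Cre 45.4% of 56593 probes passed that limit, as did 51.6% for EP4 cKO. The 2 probes of Ptger4 read 6227 and 393 for Villin-Cre, then 5661 and 592 for EP4 cKO, so they did not mark the deletion. Whether they lie in the deleted part was not determined here. The paper reported the loss of EP4 by qRT-PCR in isolated colon crypts. These arrays read whole colon, in which Ptger4 of stromal cells remains by design.

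The matrix genes as a list were lower on the EP4 cKO array. Of the 50 genes, 36 passed the background limit in 1 or both genotypes, 22 of them were more than 2-fold lower in EP4 cKO and 1 was higher, where 7.87% of all 14669 genes with a value were that much lower and 4.86% higher. Their median log2 ratio was -1.60, against -0.10 over all genes with a value. Only 21 of the 36 passed the limit in both genotypes. Among these 21 the median was -1.09 against -0.15 over all such genes, 11 were more than 2-fold lower against a share of 6.23% of all such genes, and 0 were more than 2-fold higher against 4.03%. The sign was not uniform within the limit of 2-fold: 19 of the 21 had a log2 ratio below 0 and 2, Pcolce and Fn1, above it, but with the scaling to E1A described next 11 were below and 10 above. Because the RNA is that of a whole tissue, fewer cells of a type and less RNA per cell cannot be told apart. The control spots for E1A, a spiked RNA, had after this scaling a log2 ratio of -1.04 (median of 8 probes). With both arrays scaled to E1A instead, 15 matrix genes remained past 2-fold on the low side and 3 lay past it on the high side, while 2.26% of all genes were lower and 39.5% higher. This scaling moves genes measured on both arrays by the same amount. Among these it bears on the distance from 0 and not on their order. Bounds entered at 0 moved by less, Col4a1 to 0.50, Col4a2 to 0.07 and Nid2 to 0.37, so positions relative to such genes can change.

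**Figure D1:**
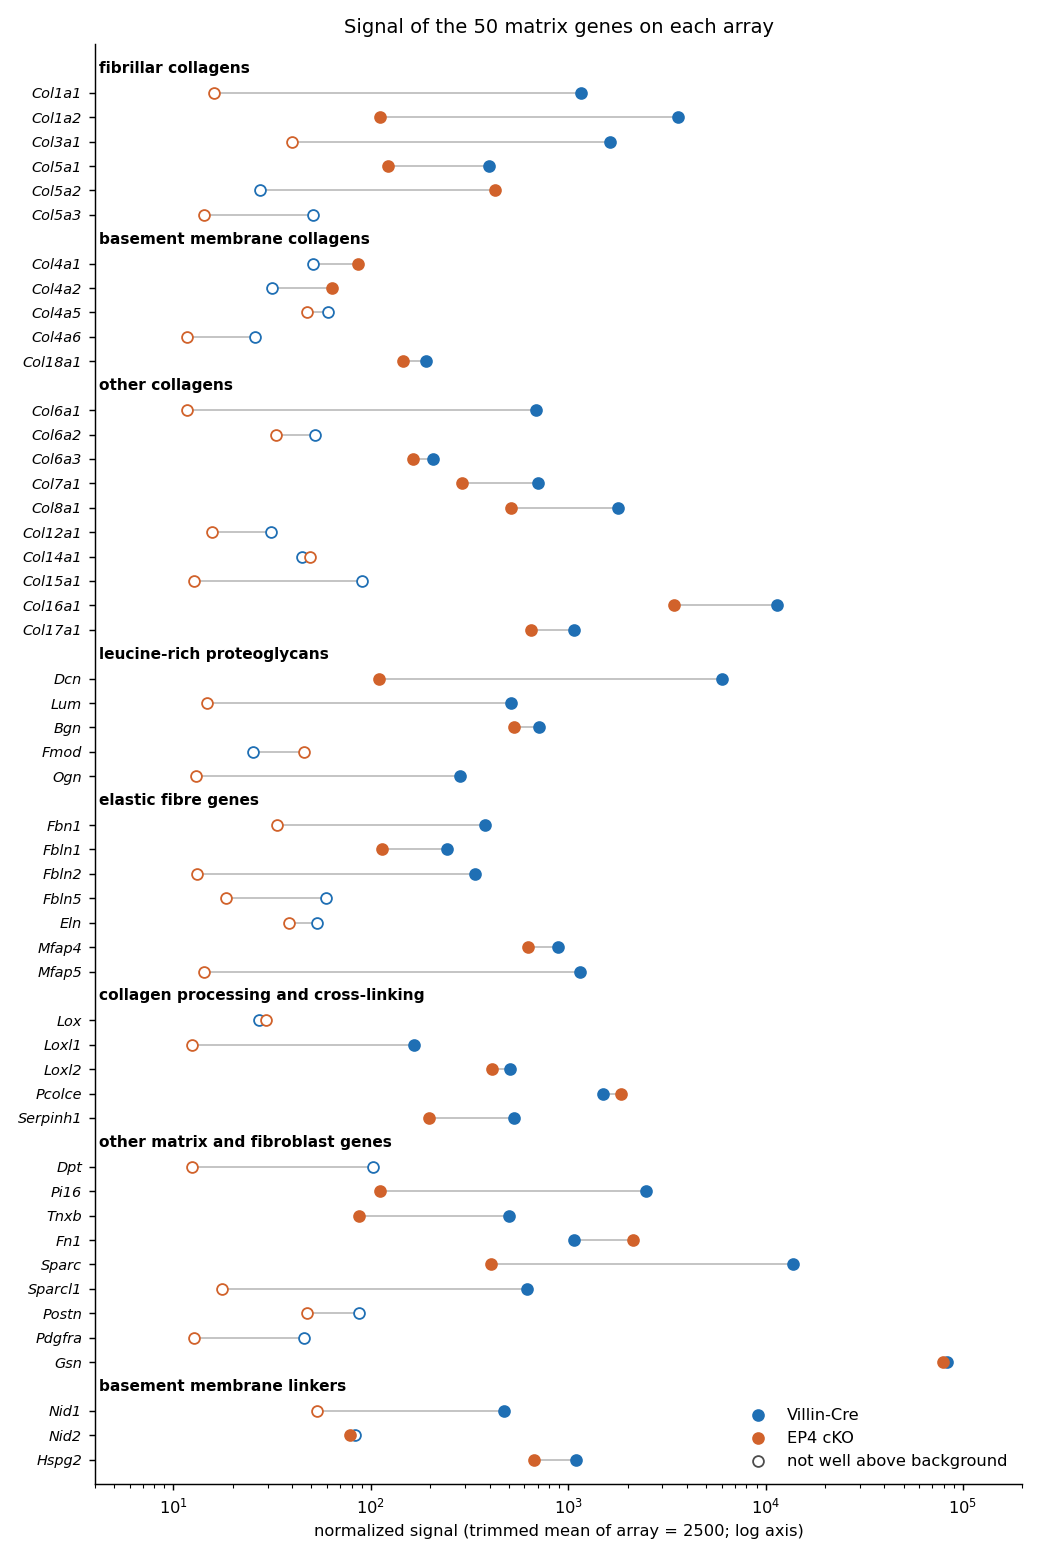
Scaled signal (log axis) of each matrix gene for Villin-Cre and EP4 cKO, by role, from the brightest probe, with open points not well above background. Of the pairs with both points filled, Dcn (6006 and 110), Sparc (13709 and 404) and Col1a2 (3613 and 111) lie furthest apart, whereas Gsn (83336 and 79481) and Hspg2 (1093 and 667) lie close together.

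The fibrillar collagens of types I and III were at least 20.0-fold lower in EP4 cKO. Col1a2, the alpha 2 chain of type I collagen, read 3613 in Villin-Cre and 111 in EP4 cKO, 32.6-fold lower. Col3a1, whose product forms fibrils together with type I collagen, read 1621 and 39.9, at least 28.0-fold lower. Both were clear of the background in the control, while in EP4 cKO Col1a2 was still above it and Col3a1 was not. Col1a1, the alpha 1 chain of type I collagen, had a pair of probes with several spots each. The first read 1155 ± 50.7 (SD of 9 spots) in Villin-Cre and 15.97 ± 3.65 in EP4 cKO, at least 20.0-fold lower. The second read 1312 ± 90.8 (SD of 8 spots) and 13.8 ± 0.877, at least 22.7-fold lower. These sizes depended on the processing: after normexp the log2 ratio was -2.32 for Col1a1, -3.34 for Col1a2 and -2.99 for Col3a1, with scaling to E1A it was -3.28, -3.98 and -3.77, and with 1 floor for both arrays it was -3.20 for Col1a1 and -3.69 for Col3a1. No spot of either Col1a1 probe was well above background on the EP4 cKO array and all were on the Villin-Cre array. These spots repeat a probe within 1 array per genotype, so their separation does not bear on variation between mice. How many other probes with several spots separate in this way is not given.

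Type V collagen, a minor component that sits inside type I fibrils and limits their width, did not share 1 direction. Col5a1 read 398 and 123, 3.24-fold lower, but its log2 ratio was within 2-fold after normexp (-0.59) and with scaling to E1A (-0.65). Col5a2 was the 1 gene of the 36 with a value that was more than 2-fold higher, at 27.6 in Villin-Cre, not well above background there, and 426 in EP4 cKO, at least 3.40-fold higher. Col5a3 passed the background limit on neither array. Col5a2 lies beside Col3a1 on chromosome 1 with 0 annotated genes between them, so neighbouring fibrillar collagen genes ran in opposite directions. The median log2 ratio of the 5 fibrillar collagens with a value was -4.32, with 4 lower and 1 higher.

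The sequences before the start of 5 genes are shown to set the promoters of lowered fibroblast genes beside that of a basement membrane collagen. Each line gives the 250 bases before the start of the gene, 5′ to 3′ on its own strand, from RefSeq annotation of GRCm38.p6, with capitals marking the motifs found. The first 4 genes lay more than 16-fold lower in EP4 cKO under the main scaling, of which only Sparc did so after normexp or with scaling to E1A, and the last, Col4a1, the alpha 1 chain of type IV collagen, was above background in EP4 cKO only, so that a decrease could not be seen. Col1a2 lies at chr6:4505368-4505617 on the plus strand, Col3a1 at chr1:45311288-45311537 on the plus strand, Sparc at chr11:55420081-55420330 on the minus strand, Pi16 at chr17:29318632-29318881 on the plus strand and Col4a1 at chr8:11312827-11313076 on the minus strand.
Col1a2: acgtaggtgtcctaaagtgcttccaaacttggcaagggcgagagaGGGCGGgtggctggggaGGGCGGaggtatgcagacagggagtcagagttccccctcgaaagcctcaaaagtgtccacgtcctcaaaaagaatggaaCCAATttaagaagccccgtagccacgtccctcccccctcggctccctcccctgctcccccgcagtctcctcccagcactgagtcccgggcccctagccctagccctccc
Col3a1: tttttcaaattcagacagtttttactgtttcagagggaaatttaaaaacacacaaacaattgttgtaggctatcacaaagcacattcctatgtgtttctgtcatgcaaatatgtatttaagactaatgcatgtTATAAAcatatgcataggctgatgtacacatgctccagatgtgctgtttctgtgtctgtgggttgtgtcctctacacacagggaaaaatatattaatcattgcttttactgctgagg
Sparc: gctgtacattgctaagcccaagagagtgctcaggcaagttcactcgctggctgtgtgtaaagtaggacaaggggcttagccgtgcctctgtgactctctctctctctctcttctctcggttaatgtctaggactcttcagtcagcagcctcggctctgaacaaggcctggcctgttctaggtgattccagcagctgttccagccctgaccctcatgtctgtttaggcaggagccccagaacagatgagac
Pi16: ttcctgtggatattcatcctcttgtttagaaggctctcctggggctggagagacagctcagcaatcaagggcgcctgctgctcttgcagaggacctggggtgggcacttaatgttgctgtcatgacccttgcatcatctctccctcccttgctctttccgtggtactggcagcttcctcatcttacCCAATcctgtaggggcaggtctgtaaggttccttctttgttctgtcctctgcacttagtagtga
Col4a1: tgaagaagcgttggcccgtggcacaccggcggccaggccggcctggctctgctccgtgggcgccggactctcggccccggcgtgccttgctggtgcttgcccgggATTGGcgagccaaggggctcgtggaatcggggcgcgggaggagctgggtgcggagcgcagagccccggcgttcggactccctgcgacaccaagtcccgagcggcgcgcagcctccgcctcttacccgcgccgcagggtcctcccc

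The motifs searched, on both strands and with no overlap between their letters, were the TATA box as TATAAA, the CCAAT box as CCAAT and the GC box bound by Sp1 as GGGCGG. Counting from the start of the gene, Col1a2 held GGGCGG at -205 and -188 and CCAAT at -109. Col3a1 held TATAAA at -117, Pi16 held CCAAT at -64, Col4a1 held ATTGG, the same box on the other strand, at -145, and Sparc held none of the 3. The 4 lowered genes therefore had no motif of these in common. Promoters were matched for 35 of the 50 genes, giving 42 windows. GGGCGG was found in 57.1% of the 42 windows and in 32.7% of 32851 windows of the same length in the genome, CCAAT in 33.3% against 33.8%, and TATAAA in 9.52% against 12.4%. Within the list, GGGCGG was found for 10 of 16 genes that were more than 2-fold lower and for 11 of 19 other genes, which include genes with no value. CCAAT was found for 5 of the 16 and 8 of the 19, and TATAAA for 2 of each.

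No basement membrane collagen with a value was past 2-fold in either direction. Col18a1, which carries the endostatin fragment and lies in epithelial and vascular basement membranes, read 190 and 145, a log2 ratio of -0.39 that turned to 0.083 after normexp, 0.13 after loess and 0.66 with scaling to E1A. Col4a1 and Col4a2, the chains of the common type IV network, were well above background on the EP4 cKO array only, at 86.1 and 63.8. Their Villin-Cre signals, 50.7 and 31.5, lay under the higher floor of that array, so no fold above 1 can be given. Col4a5 and Col4a6, chains of a rarer network, passed the background limit on neither array. As a group, 3 of 5 had a value, 0 were more than 2-fold lower or higher, and the log2 ratios ran from -0.39 to 0.00. These signals lay near the floors: a decrease of Col4a1 or Col4a2 in EP4 cKO could not have been seen, since neither was well above background in the control.

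**Figure D2:**
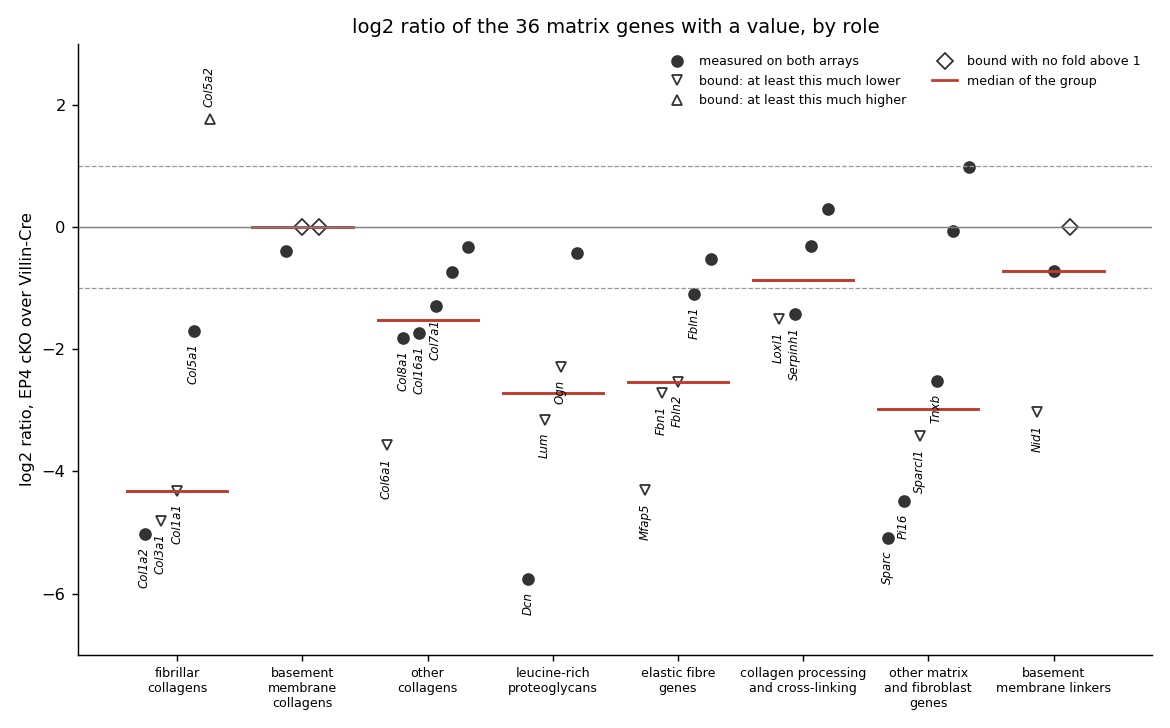
Log2 ratio of EP4 cKO over Villin-Cre for each of the 36 matrix genes with a value, 1 point per gene, by role, with the group median as a red line, bounds as open symbols and dashed lines at 2-fold. The fibrillar collagens had a median of -4.32, the basement membrane collagens of 0.00, the other collagens of -1.51 and the other roles of between -0.71 and -2.97.

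Among the other collagens, 4 of the 6 with a value were more than 2-fold lower. Col6a1, a chain of the beaded filaments of type VI collagen around cells, read 688 and 11.7, at least 11.9-fold lower. Its log2 ratio of -3.57 became -2.46 with 1 floor for both arrays and -1.91 after normexp. Col6a3, another chain of the same filament, read 206 and 164, a log2 ratio of -0.33 that turned to 0.14 after loess and 0.72 with scaling to E1A. Col6a2, which lies next to Col6a1 on chromosome 10, passed the background limit on neither array, so the chains of 1 heterotrimer were not read alike.

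Col16a1, a collagen associated with fibrils and microfibrils, read 11383 and 3416, 3.33-fold lower. Col8a1, a short-chain network collagen of vessel walls, read 1790 and 512, 3.50-fold lower. Col7a1, which forms the anchoring fibrils below epithelia, read 706 and 288, 2.45-fold lower. These 3 were measured on both arrays and so are not bounds, but with scaling to E1A they were within 2-fold, at log2 ratios of -0.69, -0.76 and -0.25, and Col7a1 was so after normexp too (-0.74). Col17a1, a transmembrane collagen of hemidesmosomes, read 1072 and 645, which is within 2-fold (-0.73). Col12a1, Col14a1 and Col15a1 passed the background limit on neither array. The group had a median of -1.51 (log2 ratio, 6 of 10 genes with a value), with 4 lower and 0 higher, and of -0.47 with scaling to E1A.

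The small leucine-rich proteoglycans coat collagen fibrils and set their spacing. Under the main scaling they held the largest difference among the matrix genes measured on both arrays. Dcn, decorin, had a signal of 6006 in Villin-Cre and 110 in EP4 cKO, 54.5-fold lower, with both signals well above background. Its log2 ratio of -5.77 became -4.73 with scaling to E1A and -4.19 after normexp, where Sparc was lower at -4.46. Lum, lumican, the neighbour of Dcn on chromosome 10, read 515 and 14.8, at least 8.91-fold lower. Ogn, osteoglycin, read 283 and 13.0, at least 4.89-fold lower, with a log2 ratio within 2-fold after normexp (-0.98). Bgn, biglycan, the closest relative of decorin, differed from these in reading 712 and 533, within 2-fold (-0.42). Fmod, fibromodulin, passed the background limit on neither array. The median was -2.72 over 4 genes, 3 of them lower.

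Of the genes of elastic fibres and their microfibrils, 4 of the 5 with a value were more than 2-fold lower. Mfap5, a microfibril-associated glycoprotein, read 1148 and 14.3, at least 19.9-fold lower. Its log2 ratio of -4.31 became -3.20 with 1 floor for both arrays and -2.14 after normexp. Fbn1, fibrillin 1, the core of the microfibril, was read by a pair of probes at 380 and 33.6 and at 272 and 14.0, at least 6.56-fold and 4.71-fold lower. Fbln2, fibulin 2, read 336 and 13.2, at least 5.81-fold lower. These 3 genes were above background in the control array only. Fbln1, fibulin 1, read 243 and 114 and lay just past the limit at 2.13-fold lower, a call that ended with 75th percentile scaling (-0.93 on the log2 scale), loess (-0.57), normexp (-0.36) and scaling to E1A (-0.05). Mfap4, another microfibril protein, read 891 and 624, within 2-fold (-0.52). Eln, elastin itself, and Fbln5, which binds it, passed the background limit on neither array. The median was -2.54 over 5 of 7 genes.

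Among the genes that process and cross-link collagen, the result was mixed. Pcolce, which enhances removal of the C-terminal propeptide of procollagen, was read by a pair of probes with 9 spots each. They read 1507 ± 32.4 (SD of spots) and 1050 ± 58.1 in Villin-Cre, and 1843 ± 67.8 and 1133 ± 52.8 in EP4 cKO, log2 ratios of 0.29 and 0.11. This gene of fibroblasts was thus no lower in EP4 cKO while the collagens I and III that its protein acts on were. Serpinh1, the collagen chaperone of the endoplasmic reticulum, read 528 and 197, 2.69-fold lower. Loxl1, a lysyl oxidase that cross-links elastin, read 165 and 12.5, at least 2.85-fold lower. The calls for both ended under other processing: Serpinh1 was at -0.78 (log2 ratio) after normexp and -0.38 with scaling to E1A, and Loxl1 at -0.60 and -0.47, at -0.79 after loess and at -0.39 with 1 floor for both arrays. Loxl2, a related cross-linking enzyme, was the only gene whose probes gave different calls, 509 and 410 (-0.31) for the brighter and 199 and 66.0 (at least 3.02-fold lower) for the dimmer. Lox passed the background limit on neither array.

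Of the further genes of fibroblasts and matrix, 4 of the 6 with a value were more than 2-fold lower. Sparc, a collagen-binding glycoprotein of tissues in repair and growth, was read by a pair of probes at 13709 and 404, 33.9-fold lower, and at 1167 and 31.9, at least 20.2-fold lower. Pi16, a peptidase inhibitor that marks adventitial fibroblasts, read 2489 and 111, 22.4-fold lower. Sparcl1, a relative of Sparc, read 618 ± 93.6 (SD of 10 spots) and 17.7 ± 5.72, at least 10.7-fold lower. All 10 spots of Sparcl1 passed the limit in Villin-Cre and 0 in EP4 cKO, which likewise covers only the error within an array. Tnxb, a tenascin that binds fibrils, read 498 and 86.7, 5.75-fold lower.

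Other genes of the same group did not follow. Fn1, fibronectin, an adhesive matrix protein, read 1071 in Villin-Cre and 2119 in EP4 cKO, 1.98-fold higher and just within the limit, by the brighter of its probes. A dimmer probe of Fn1 read 30.1 and 73.6 and was well above background on the EP4 cKO array only, with no fold above 1. Gsn, gelsolin, which severs actin filaments and is made by many cell types, read 83336 and 79481 (-0.07), and its dimmer probe 612 and 455 (-0.43). Dpt, Postn and Pdgfra, the last a receptor that marks fibroblasts, passed the background limit on neither array.

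Of the proteins that link the basement membrane, Nid1, nidogen 1, joins laminin to type IV collagen. It read 472 and 53.6, at least 8.16-fold lower. The log2 ratio of Nid1, -3.03, became -1.91 with 1 floor for both arrays, -1.99 with scaling to E1A and -1.25 after normexp. Nid2, a relative of Nid1, read 83.4 and 78.5 and was well above background on the EP4 cKO array only, with no fold above 1. Hspg2, perlecan, the heparan sulfate proteoglycan of basement membranes, read 1093 and 667, within 2-fold (-0.71). Nid1 was thus the 1 gene past 2-fold among the 3 linkers and the 3 basement membrane collagens with a value.

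Side by side, the median log2 ratio was -4.32 for the fibrillar collagens, 0.00 for the basement membrane collagens (2 of the 3 entered at 0) and -1.90 for the 22 of 29 matrix genes that are not collagens, of which 14 were more than 2-fold lower and 0 higher. Of these 22 values, 8 were bounds from the control array. Over the 13 such genes measured on both arrays the median was -0.71, with 6 lower, and over all 22 it was -0.88 after normexp and -0.86 with scaling to E1A, so these medians lay within 2-fold. All 21 collagens together, of which 14 had a value, had a median of -1.49, with 8 lower and 1 higher. With few genes in each group and 1 array per genotype these medians describe the arrays, and the difference between groups was not tested. The 14 genes that passed the limit on neither array read from 25.2 to 102 in Villin-Cre and from 11.7 to 49.4 in EP4 cKO, which gives no fold.

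**Figure D3:**
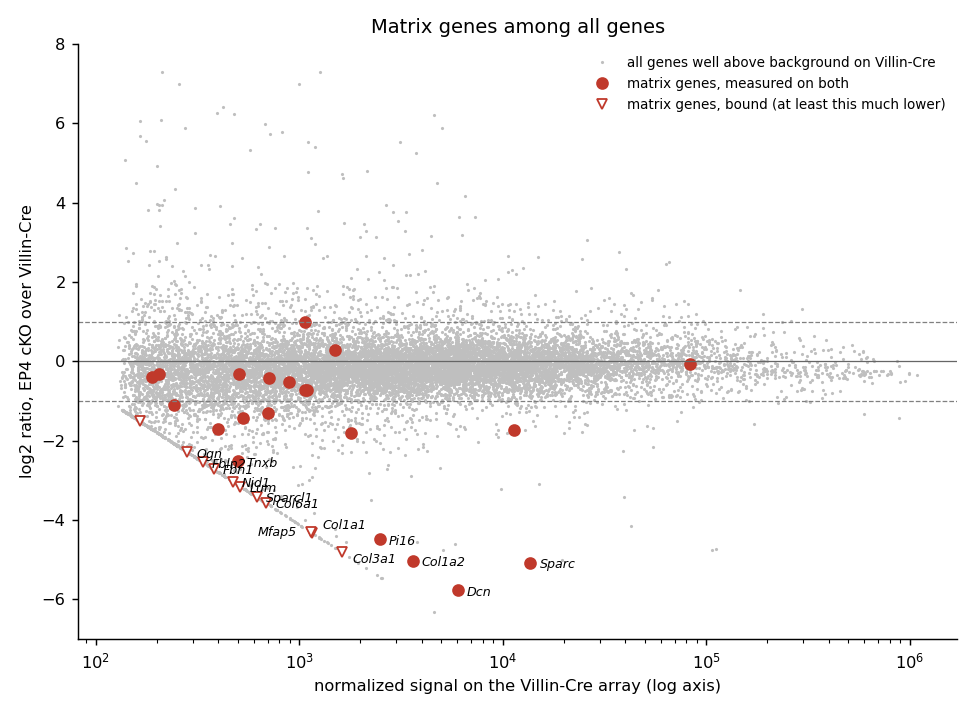
Log2 ratio of EP4 cKO over Villin-Cre against the Villin-Cre signal (log axis) for all genes well above background in Villin-Cre (grey), with the matrix genes in red, filled if measured in both genotypes and open if a bound. Dcn, Sparc, Col1a2 and Col3a1 lie at the lower edge, at ranks 2, 7, 9 and 13 from the lowest of 14669.

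The matrix genes ranged from near the lowest to near the highest of all genes. Counted from the lowest log2 ratio of 14669 genes, Dcn was at rank 2, Sparc at 7, Col1a2 at 9, Col3a1 at 13, Pi16 at 26, Col1a1 at 34 and Mfap5 at 35. The ranks of Col3a1, Col1a1 and Mfap5 rest on bounds and so depend on the floor of the EP4 cKO array. Gsn lay nearer the middle at rank 7705, as did Col4a1, Col4a2 and Nid2, tied at 8434 by bounds entered at 0. Towards the other end lay Pcolce at 11883, Fn1 at 13938 and Col5a2 at 14407. A gene can be called lower only where the control signal is high enough, and 32 of the 50 genes were well above background on the Villin-Cre array. Of these, 22 were more than 2-fold lower, against 8.76% of all 13172 such genes. A limit of 16-fold, chosen after the values were seen, was passed by the 7 ranked genes, against 49 of all such genes (0.372%). It was passed by 5 matrix genes after loess, all but Col1a1 and Mfap5. With 1 floor for both arrays 4 passed it (Col1a2, Dcn, Pi16 and Sparc). After normexp or with scaling to E1A 2 passed it (Dcn and Sparc), and with dim probes kept 12 did. For these settings no share of all genes past 16-fold is given. With dim probes kept 31.5% of all genes were more than 2-fold lower, so the 12 cannot be read as particular to matrix genes. Dim genes were lower more often in general: among genes with a Villin-Cre signal of at most 2500, 15.1% of 6322 were more than 2-fold lower, and 18 of the 27 matrix genes of that range were.

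Repeat probes of a gene were also compared where they were well above background on at least 1 array. Of the 43 probes of the list with a usable signal, 26 were more than 2-fold lower, 1 higher and 16 within 2-fold. No share over all probes is given beside this count. Of the 19 genes with more than 1 probe, 7 had more than 1 with a usable signal. Of these 7, 6 had the same call by each, all but Loxl2. Repeats below the limit were not compared.

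The other genes of the collagen pathway, taken from lists of their own that were also chosen with earlier results known, were lower in part. Of 27 hydroxylases, chaperones and proteinases that build collagen, 20 had a value, 6 were more than 2-fold lower and 1 higher, with a median log2 ratio of -0.22, beside 7.87% lower and 4.86% higher over all genes. Fkbp10, a chaperone of procollagen, was at least 5.14-fold lower, Adamts2, which removes the N-terminal propeptide, at least 6.95-fold and Plod1, a lysyl hydroxylase, 2.64-fold. Mrc2, an uptake receptor for collagen, had a log2 ratio of -3.32, a bound, Colgalt2, a collagen galactosyltransferase, was at least 8.67-fold lower and Pcolce2, a relative of Pcolce, at least 2.80-fold. Tgm2, a transglutaminase that cross-links matrix, was 2.41-fold higher. Other genes of this list were within 2-fold, of which P4hb, the beta subunit of prolyl hydroxylase, read 25649 and 28488 (0.15), Ppib, a proline isomerase, 45348 and 49043 (0.11) and P3h1, a prolyl 3-hydroxylase, 5359 and 6568 (0.29).

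Genes that break matrix down and signal to fibroblasts were read next, with the shares of 7.87% lower and 4.86% higher over all genes as their background. Of 22 metalloproteinases and their inhibitors 10 had a value, 2 were more than 2-fold lower and 0 higher. These were the inhibitors Timp2, 7.39-fold lower, and Timp3, 2.23-fold lower. Of 20 genes of TGF-beta ligands, receptors and latency proteins, the pathway best known for driving collagen synthesis, 13 had a value, 0 were more than 2-fold lower and 1, Tgfbi, was 2.15-fold higher, with a median of 0.00. Of 10 collagen receptors 6 had a value and 1, Gp6, was 3.28-fold lower. Their median was -0.14.

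Among 18 laminins and other basement membrane genes, 11 had a value, with 3 more than 2-fold lower and 3 higher, beside 7.87% and 4.86% of all genes. Lamb2, Lamc1 and Lama4 were 4.04-fold, 2.77-fold and 2.56-fold lower, and Tinagl1 and Lamb3 were 2.71-fold and 2.40-fold higher. Lamb3 encodes a laminin chain of epithelia, whereas Lama4 is a laminin chain of vessels and muscle. Lama3, another laminin chain of epithelia, read 2267 and 4148, a log2 ratio of 0.87.

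Further matrix genes outside the list of 50 were set beside the same shares of all genes (7.87% lower, 4.86% higher). Of 23 remaining collagens of the genome 7 had a value and 3 were more than 2-fold lower, with a median of -0.87, namely Col13a1, a transmembrane collagen (at least 20.6-fold), Col2a1, the collagen of cartilage (at least 3.21-fold) and Col20a1 (2.02-fold). Of 46 other glycoproteins and proteoglycans 24 had a value, 11 were lower and 1, Ecm1, was 2.10-fold higher, with a median of -0.88. Aebp1, a collagen-binding protein of fibroblasts, was 23.4-fold lower, Igfbp6 21.1-fold and Efemp1, a fibulin, at least 8.72-fold. Igfbp7, like Igfbp6 a binding protein for insulin-like growth factors, was at least 8.32-fold lower, Spon2, a spondin, 4.53-fold and Thbs3, a thrombospondin, 3.44-fold. Thbs4, another thrombospondin, read 81022 and 59995 (-0.43) and Prelp, a leucine-rich proteoglycan, 6939 and 4242 (-0.71), so matrix genes within 2-fold were present here too.

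**Figure D4:**
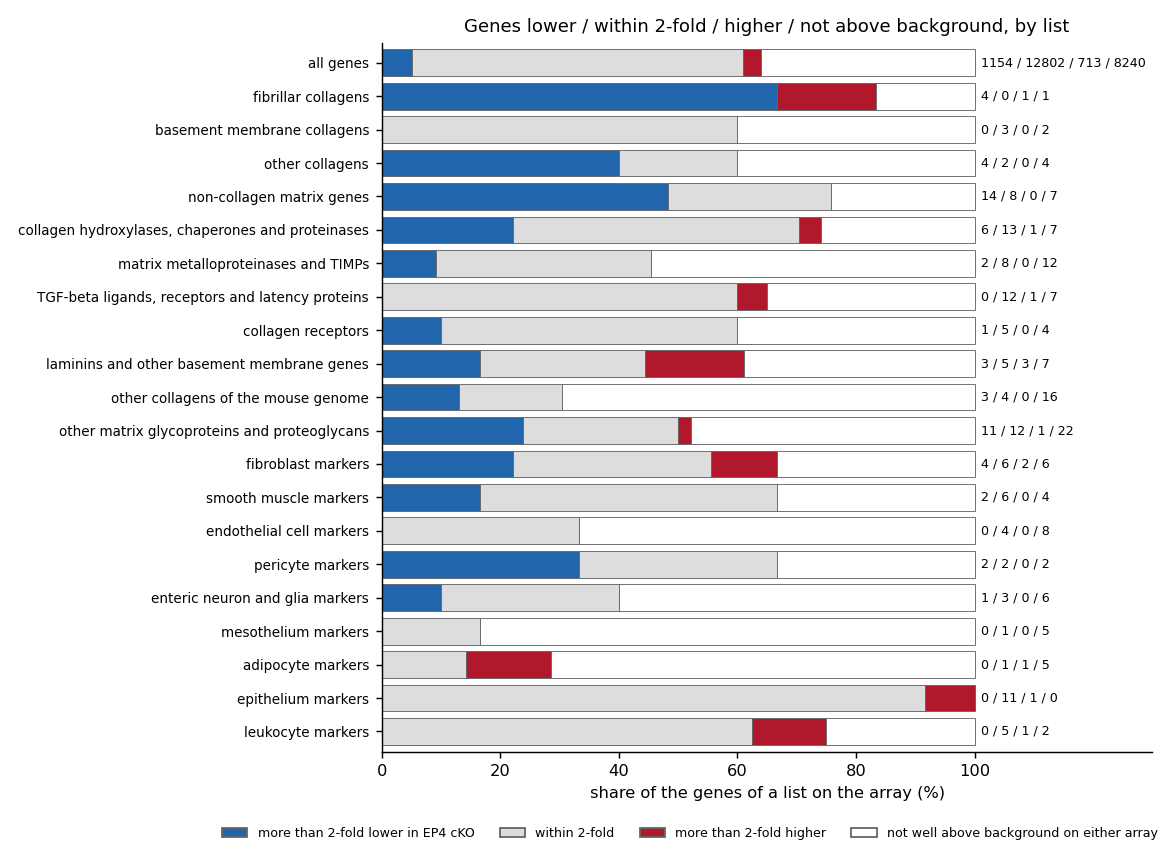
Share (%) of the genes of 4 matrix groups, each pathway list and cell marker list that were more than 2-fold lower or higher in EP4 cKO or within 2-fold, or below the background limit throughout. Of the lists drawn, the fibrillar collagens (4 of 6) and the non-collagen matrix genes (14 of 29) have the largest shares of lower genes, whereas the epithelial list has 0 lower of 12 and the TGF-beta list 0 of 20.

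Markers of the cells that make matrix were set beside these values. Of 18 fibroblast markers outside the list, 12 had a value, 4 were more than 2-fold lower and 2 higher, with a median of -0.46, beside 7.87% lower and 4.86% higher over all genes, the background for each marker list here. Serping1, a complement inhibitor, was 4.38-fold lower, C1s1, a complement protease, 3.50-fold, Clec3b, tetranectin, 2.82-fold and Ackr3, a chemokine receptor, 2.43-fold. Ly6c1, which lymphocytes and vessels also express, was 5.52-fold higher and C1ra, another complement protease, 3.60-fold. Thy1, a surface protein of fibroblasts, read 1505 and 1836, Cd34, of adventitial cells and vessels, 1203 and 747, Vim, the intermediate filament of mesenchyme, 986 and 809 and Fap, a protease of fibroblasts, 981 and 835. These 4 were within 2-fold. The summed level of the list went from 77852 to 368283, nearly all of it Ly6c1 (63810 and 352069), followed by Dpep1, a dipeptidase (6312 and 8112). Pdpn, Cxcl12, Igf1, Grem1, Tcf21 and Twist2 of this list did not pass the background limit on either array.

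Smooth muscle, the other large source of matrix, was read unevenly. Of 12 markers 8 had a value, 2 were more than 2-fold lower (Cnn1, calponin, 6.62-fold and Myl9, a myosin light chain, 4.43-fold) and 0 higher, with a median of 0.19 and a summed level of 36275 and 52236. Acta2, Actg2 and Tagln, actins and an actin-binding protein, read 18006 and 27719, 7308 and 12072, and 4224 and 5490. Myh11, the smooth muscle myosin, and Lmod1, Synm and Synpo2 were below the background limit throughout. Of 12 endothelial markers 4 had a value, 0 were called and the sum went from 1273 to 1061, with Cdh5, Kdr, Tie1, Tek and Emcn below the limit and Egfl7 at 330 and 244, Lyve1 at 276 and 307 and Pecam1 at 172 and 152. Of 6 pericyte markers 4 had a value and 2 were lower, Pdgfrb 2.88-fold and Kcnj8 2.44-fold, with Notch3 at 1780 and 1872 and a summed level of 3483 and 2615.

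Of 10 markers of enteric neurons and glia 4 had a value and 1, Uchl1, was 2.69-fold lower, with the neuronal genes Snap25 at 35809 and 50736 and Elavl4 at 1339 and 757, and the glial genes S100b, Sox10 and Gfap passed the limit on neither array. Of 6 mesothelial markers 1, Msln, had a value (364 and 242), and of 7 adipocyte markers 2 did, Lep (741 and 720) and Cidec, at least 36.6-fold higher, with Adipoq, Plin1 and Fabp4 below the limit. All 12 epithelial markers had a value, 0 were lower and 1, Krt20, was 3.48-fold higher, with a median of 0.21 and a summed level of 3265642 and 3808308. Lgals4, a galectin, read 801162 and 679445, and the keratins Krt8 and Krt19 read 663603 and 686670 and 409329 and 511892. Of 8 leukocyte markers 6 had a value, 0 were lower and 1, Cd52, was 2.70-fold higher, with a sum of 55065 and 76914, most of it Itgam (49347 and 68597), beside Cd3e at 3069 and 2861. The methods call the tissue whole colon, and all 12 epithelial markers were measured in both genotypes, 8 of 12 smooth muscle markers had a value, Myh11 not among them, and the defining markers of glia and most of those of endothelium stayed below the background limit. The share of connective tissue in each RNA was not measured apart from these markers, and its part in the lower matrix signals was not tested.

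The group medians were recomputed under other processing. Of the 4 groups plotted, the fibrillar collagens had the lowest median under the main scaling and each of 8 alternatives. This depends on pooling the non-collagen genes. With dim probes kept, the leucine-rich proteoglycans alone had a median of -4.45, below the fibrillar collagens at -3.43. Under the other settings the proteoglycans were higher. Over genes measured on both arrays the medians were -3.09 and -3.36, each from 2 genes. The place of the basement membrane collagens carries no weight, since Col4a1 and Col4a2 could not have come out low and only Col18a1 was measured on both arrays. The other collagens and the non-collagen genes changed places between settings.

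**Figure D5:**
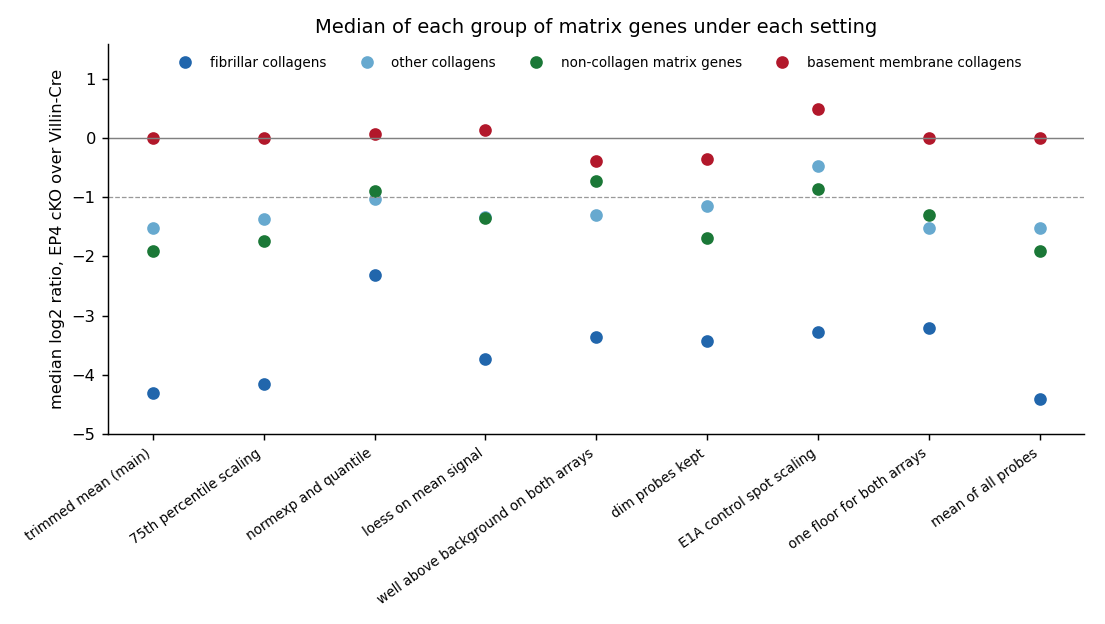
Median log2 ratio of EP4 cKO over Villin-Cre of 4 groups of matrix genes (coloured points) under the main scaling and 8 alternatives, with a dashed line at 2-fold lower. The fibrillar collagens are lowest under each setting shown, from -4.41 with the mean of all probes to -2.32 after normexp. The basement membrane points rest on Col18a1 and on bounds entered at 0.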

How the data were processed

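Whole colon RNA of Villin-Cre and EP4 cKO mice was labelled with Cy3 and read on 1 Agilent mouse expression array per genotype, with groups taken from the genotype labels. The authors deposited scanner intensity values per spot, background subtracted and detrended by Feature Extraction, for which the file header gives version 12.0.3.1 and the submitters' processing notes 11.5.1.1. The study's global scaling (trimmed mean of 2500, 2% removed at each end) is not in these intensities and was repeated here, the factors being 3.45 (Villin-Cre) and 2.68 (EP4 cKO). Control spots and those marked as outliers on either array (147 and 126) were left out, 0 spots were saturated, and the deposited flag for signal above background was kept. The spots of a probe were averaged. By RefSeq accession, 32989 of 56593 probes (58.3%) were named from the GRCm38.p6 gene table. The array grid uses an older build, so gene coordinates are given only for RefSeq promoters.

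A log2 ratio was made per probe, and the gene took its brightest probe by mean log2 signal. A threshold of 2-fold was used. No test was made, since a genotype had 1 array. Signal over background and the number of arrays limit the precision. The members and lists were chosen with earlier results of these data known. By rule every member is named, with all its probes above background, as are up to 6 genes past 2-fold of each pathway list and, of each marker list, the 3 of highest signal and up to 4 past 2-fold. P4hb, Ppib, P3h1, Lama3, Thbs4, Prelp and further markers within 2-fold or below the limit were named after their values were seen. The values of some single genes of these lists are left out.

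The alternatives were 75th percentile scaling, normexp (offset 50, on the median signal) with quantile normalization, loess (span 0.3), probes above background on both arrays, dim probes kept, the mean of all probes, and thresholds of 3-fold and 1.5-fold. Scaling to E1A, 1 floor for both arrays and the 16-fold count were chosen after seeing the data. Scripts were tested on simulated data. Python 3.11.15, numpy 2.4.6, pandas 2.3.3, statsmodels 0.14.6, matplotlib 3.10.9, R 4.3.3 and limma 3.58.1 were used.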

Additional observations from a re-analysis of the deposited data

How the results depend on the processing

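No gene past 2-fold changed direction. The median of the basement membrane collagens, at 0.00, moved to either side, and with scaling to E1A those of the collagen processing genes (-0.87) and the basement membrane linkers (-0.71) turned to 0.17 and 0.33. Leaving out an array would leave no comparison. No paired analysis was possible because each genotype had 1 array. The median log2 ratio of the matrix genes (-1.60) was -1.45 with 75th percentile scaling, -0.76 after normexp with quantile normalization, -1.23 after loess, -1.09 over the 21 genes measured on both arrays, -1.36 with dim probes kept, -1.36 with 1 floor for both arrays and -0.56 scaled to E1A. In the same order the fibrillar collagens (-4.32) had -4.16, -2.32, -3.73, -3.36, -3.43, -3.20 and -3.28, and -4.41 with the mean of all probes. The matrix genes that are not collagens (-1.90) had -1.74, -0.88, -1.36, -0.71, -1.69, -1.30 and -0.86. The other collagens (-1.51) had -1.36 with 75th percentile scaling, -1.02 after normexp, -1.33 after loess, -1.29 on both arrays, -1.14 with dim probes kept and -0.47 scaled to E1A. The basement membrane collagens (0.00) had 0.083 after normexp, 0.13 after loess, -0.39 on both arrays, -0.35 with dim probes kept and 0.50 scaled to E1A.

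The 22 genes more than 2-fold lower were 11 on both arrays, 16 after normexp (without Col5a1, Col7a1, Ogn, Fbln1, Loxl1 and Serpinh1), 20 after loess (without Fbln1 and Loxl1), 21 with 1 floor for both arrays (without Loxl1), 21 with 75th percentile scaling (without Fbln1), 15 scaled to E1A (without Col5a1, Col7a1, Col8a1, Col16a1, Fbln1, Loxl1 and Serpinh1) and from 18 to 28 under the other settings. The 1 gene more than 2-fold higher was 0 on both arrays, 2 with 75th percentile scaling, loess or the 1.5-fold threshold (with Fn1), 2 with dim probes kept (with Col4a2), and 3 scaled to E1A (with Pcolce and Fn1). The median of all genes shifted by 0.10 with 75th percentile scaling, 0.13 after loess, -0.27 with dim probes kept and 0.97 scaled to E1A. Of all genes 6.18% were lower and 6.39% higher with 75th percentile scaling, 2.74% and 3.99% after normexp, 4.90% and 7.73% after loess, 2.26% and 39.5% scaled to E1A, and 31.5% and 5.10% with dim probes kept, the setting that gave 28 lower matrix genes. The cause of these shifts was not tested. Of 273 values of single genes under an alternative, 172 moved by more than the median spot SD. Signs changed for 8 genes within 2-fold: Gsn with 75th percentile scaling (0.09) and E1A (0.97), Col18a1 after normexp (0.083), loess (0.13) and with E1A (0.66), Col6a3 after loess (0.14) and with E1A (0.72), and with E1A alone Col17a1 (0.31), Bgn (0.63), Mfap4 (0.53), Loxl2 (0.73) and Hspg2 (0.33). Dim control signals limit what can be seen for type IV collagens, elastin and Lox.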
